A study of Rattus norvegicus with 21 samples.

Results

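Fluoxetine, a selective serotonin reuptake inhibitor used as an antidepressant, was compared with stress alone in the dentate gyrus of rats. The comparison rests on 6 animals of the 18 in the series, 3 that received fluoxetine during chronic stress and 3 that went through the stress with no drug named, and both sets were taken from the sample titles. All were male wild type Wistar rats aged 2 months. Fluoxetine was given at 10 mg/kg by daily intraperitoneal injection in ultra-pure water during the last 2 weeks of 6 weeks of unpredictable chronic mild stress (uCMS), a schedule of varied mild stressors used as a rat model of depression. The stressed animals had the same 6 weeks with the agent given as untreated. Imipramine and tianeptine at 10 mg/kg in saline, under the same stress, and untreated, unstressed control animals serve below as further points of comparison, with 3 animals in each group. Agomelatine animals (40 mg/kg) enter values taken over all 18 animals. Among these are the shared estimate of the spread, the signal filter and the mean from which deviations are taken. The labels describe injections for the drug groups only, so the drug and the daily injection cannot be told apart in the comparison with stress. Behaviour and drug levels were not analysed here.

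Affymetrix Rat Gene ST arrays gave the expression levels, with 1 array an animal except in the control group, where each animal had a repeat array that was averaged with the first. Values are log2 expression levels after RMA (background correction, quantile normalisation and probe summary), so that 1 unit is a factor of 2, and each array's median over all probe sets lay between 7.99 and 8.08. Arrays give no read depth, and the number of animals limits the precision. The granule neuron markers Prox1, C1ql2, C1ql3, Calb1, Fam163b and Rfx3 lay between the 85.5th and the 98.4th percentile of all tested genes. The percentiles are of mean levels over all 18 animals. The median SD between animals was 0.085 in the fluoxetine group and 0.083 in the stress group. Among the 6 groups it was largest in agomelatine animals (0.118), which enter the shared estimate of the spread behind every standard error. A single animal stood apart in each of several gene groups. Stressed animal 1 had high choroid plexus and meningeal genes, stressed animal 3 had high Htr2c and Ccn3, and fluoxetine animal 3 had low ribosomal protein genes (a mean deviation of -0.16 in that animal and of 0.12 and 0.11 in the other fluoxetine animals) and the lowest weight of all 18 arrays when limma estimated array quality (0.335). A mean deviation is the average, over the genes of a list, of an animal's log2 level minus that gene's mean over all animals. Results that rest on these animals are given below with and without them.

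The dentate gyrus is the entry of the hippocampus and one of the few brain regions in which neurons are born in adult rodents. Its granule neurons receive serotonin fibres from the raphe nuclei and carry the receptor 5-HT1A, and chronic blockade of serotonin reuptake is known to raise the birth and maturation of granule neurons in rodents. In mice, long fluoxetine treatment has also been described to return mature granule neurons toward an immature state with less Calb1 and Tdo2. The region is rich in both corticosteroid receptors, and stress hormones induce there a set of quickly responding genes that includes Dusp1, Nfkbia, Ddit4, Fkbp5 and Sgk1. Neuronal firing induces a partly overlapping set of immediate early genes, among them Fos, Arc, Egr1 and Nr4a1.

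No named gene passed the test between fluoxetine and stress. limma called 0 of 11940 genes (0%) at a Benjamini-Hochberg adjusted p under 0.05, and the smallest adjusted p was 0.45, shared by Dusp1 and Fancd2osl1. At an unadjusted p under 0.05 there were 619 genes (5.18%), against 597 that this threshold gives by itself, with 308 higher (2.58%) and 311 lower (2.6%) in fluoxetine animals. In 1350 genes (11.3%) the 3 fluoxetine and the 3 stress animals did not overlap, 685 with fluoxetine higher (5.74%) and 665 with fluoxetine lower (5.57%). The differences were small. The absolute difference had a median of 0.059 and a 95th percentile of 0.20, beside a median standard error of 0.085, and the median over all genes was -0.0053 with 47.5% above and 52.5% below 0. When the arrays were first shifted to equal medians over the tested genes, that median became 0.034, 65.2% lay above 0, and 612 genes were higher and 111 lower at an unadjusted p under 0.05. Single gene values below are therefore descriptions of these 6 animals, with adjusted p-values from limma over all tested genes. When each array was weighted by its estimated quality, limma called 4 genes, Dusp1, Fancd2osl1, Kcng1 and Nfkbia. Besides fluoxetine animal 3, the agomelatine arrays had low weights in that fit (0.439, 0.588 and 0.383).

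**Figure D1:**
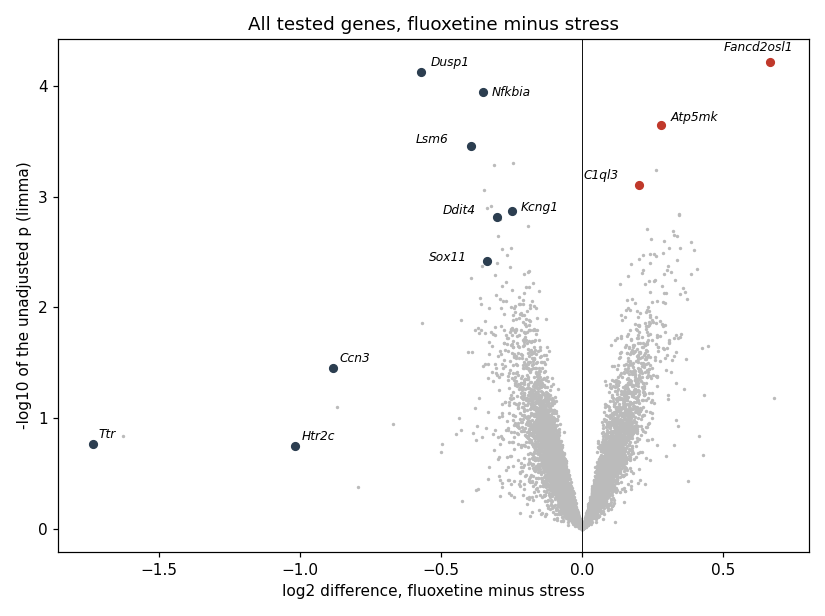
Difference in mean log2 expression, fluoxetine minus stress (horizontal axis), against -log10 of the unadjusted p of limma (vertical axis) for the 11940 tested genes, with 12 of them named. Dusp1 and Fancd2osl1 stand highest, and the widest labelled differences, in Ttr, Htr2c and Ccn3, have much larger p, with 1 stressed animal far from the others in each.

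The 12 lower and 12 higher genes named first were those of smallest p among genes whose fluoxetine and stress animals did not overlap. For these genes the lack of overlap was thus a condition of the choice and not a result. Among the 12 with lower values in fluoxetine animals, 4 are stress or activity response genes, Dusp1, Nfkbia, Ddit4 and Gadd45b. Dusp1 encodes a phosphatase that switches off the MAP kinases p38 and JNK, and glucocorticoids induce it. Its level was 9.05, 9.13 and 9.48 in fluoxetine animals, against 9.86, 9.66 and 9.84 in stressed animals. All fluoxetine animals lay below all stressed animals, with a mean difference of -0.57 ± 0.11 (SE; adjusted p = 0.450), and fluoxetine animal 3 was the nearest to them. Control animals had 9.29 ± 0.060 (SD, n = 3), within the range of the fluoxetine animals. Without fluoxetine animal 3 the difference was -0.70 ± 0.11, and over the fits that each left out 1 animal it ran from -0.70 to -0.49 with adjusted p from 0.0596 to 0.98.

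Nfkbia encodes the inhibitor that holds the transcription factor NF-kB in the cytoplasm, and it is induced both by NF-kB and by glucocorticoids. It had 8.49, 8.41 and 8.45 in fluoxetine animals, against 8.86, 8.82 and 8.73 in stressed animals. The groups were well apart, with a difference of -0.35 ± 0.073 (adjusted p = 0.451), and the control level of 8.53 ± 0.044 was close to that of the fluoxetine animals. Ddit4, an inhibitor of the growth kinase mTORC1 that stress hormones and low oxygen induce, had 9.31, 9.23 and 9.05 in fluoxetine animals, against 9.54, 9.48 and 9.47 in stressed animals. It too did not overlap between the groups (-0.30 ± 0.081, adjusted p = 0.934), and the controls, at 9.21 ± 0.042, again lay within the fluoxetine range. Gadd45b, an activity-induced gene tied to DNA demethylation and neurogenesis in the mouse dentate gyrus, had 8.60, 8.75 and 8.78 in fluoxetine animals, against 8.96, 8.97 and 9.08 in stressed animals. Here the controls (8.96 ± 0.050) lay with the stressed animals, and the difference between fluoxetine and stress was -0.29 ± 0.079 (adjusted p = 0.934).

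**Figure D2:**
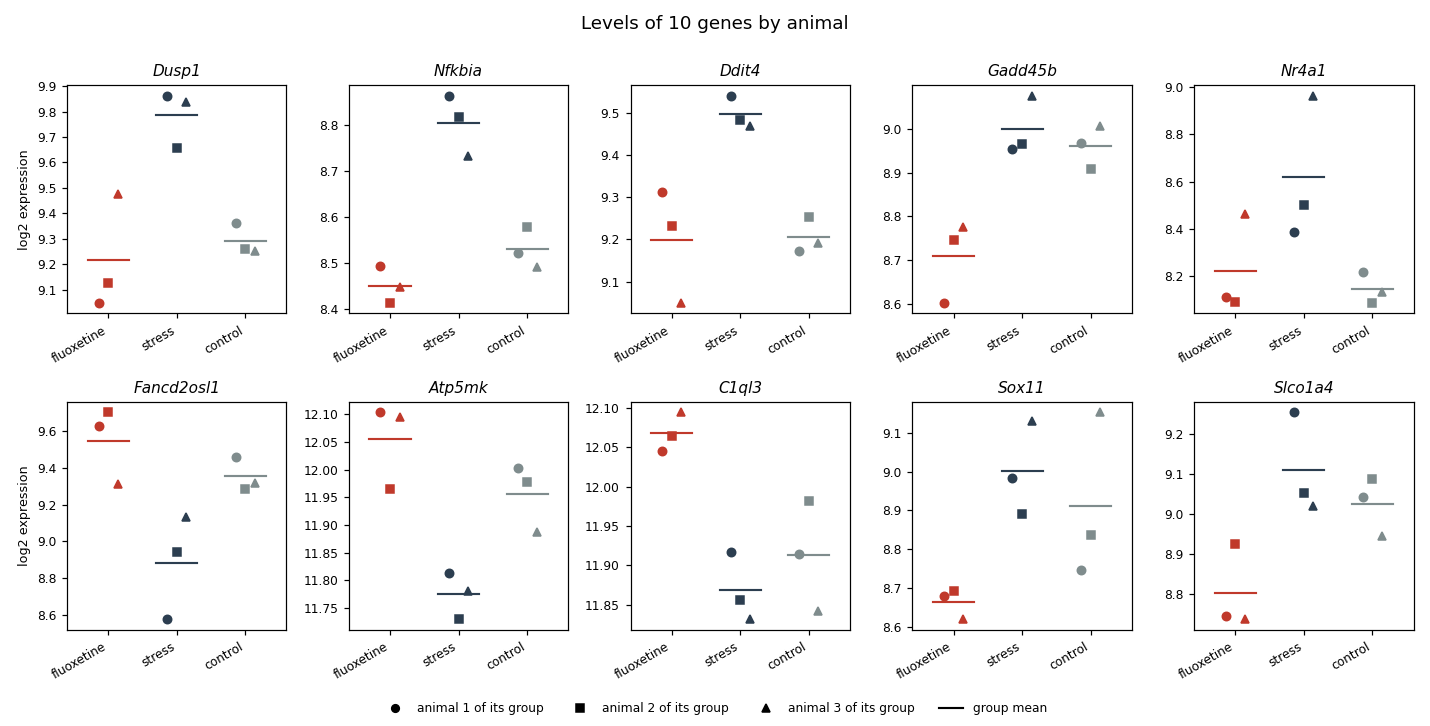
Log2 expression (vertical axes, separate scale for each gene) of 10 genes in each fluoxetine, stress and control animal, with lines at the group means. In all genes shown but Nr4a1 no fluoxetine animal overlaps a stressed animal, and none of the differences passed the test over all genes. Most of the genes shown were chosen among those without overlap.

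The 250 bases before the annotated starts of Dusp1 and Nfkbia are shown because these are the lower genes with the smallest p. They come from RefSeq on the GRCr8 assembly, 5′ to 3′ along each gene, at chr10:17184603-17184852 on the plus strand for Dusp1 and at chr6:78597073-78597322 on the minus strand for Nfkbia. In Dusp1 the capitals mark the cyclic AMP response element TGACGTCA, 124 bases before the start, and its half-site TGACG, 172 bases before it.
Dusp1: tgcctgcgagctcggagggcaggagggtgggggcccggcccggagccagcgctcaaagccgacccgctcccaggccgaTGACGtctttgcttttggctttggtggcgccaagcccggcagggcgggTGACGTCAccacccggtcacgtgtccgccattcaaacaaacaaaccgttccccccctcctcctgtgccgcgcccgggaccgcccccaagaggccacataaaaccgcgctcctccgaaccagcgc
In Nfkbia the capitals mark a match to the NF-kB motif, 31 bases before the start.
Nfkbia: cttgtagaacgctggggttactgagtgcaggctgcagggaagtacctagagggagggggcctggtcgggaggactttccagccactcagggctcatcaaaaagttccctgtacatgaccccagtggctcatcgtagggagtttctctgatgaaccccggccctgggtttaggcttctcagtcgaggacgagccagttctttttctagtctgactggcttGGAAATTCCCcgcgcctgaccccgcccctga
Both strands were searched. TGACGTCA occurred in the 250 bases of 1.59% of 33469 rat promoters, TGACG in 18.2% and the NF-kB motif in 3.54%. Of the 3 half-site matches in Dusp1, 2 overlap the full element. The core of the glucocorticoid response element, written ACANNNTGT, occurred in 5.81% of promoters and had no match in the windows of Dusp1, Nfkbia, Ddit4 or Gadd45b, and the windows of Ddit4 and Gadd45b held none of the motifs searched. The search covered these 250 bases and exact matches only, so sites farther away or with other letters would be missed.

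The other 8 genes on the lower side serve unlike roles. Lsm6, part of the ring of proteins that binds U6 RNA in splicing, had 7.26, 7.35 and 7.18 in fluoxetine animals, against 7.74, 7.53 and 7.70 in stressed animals (-0.39 ± 0.090, adjusted p = 0.838). Ptpn1, the phosphatase PTP1B that acts on the insulin and leptin receptors, had 10.01, 9.96 and 9.94 in fluoxetine animals, against 10.12, 10.32 and 10.22 in stressed animals (-0.25 ± 0.059). Slc40a1, the iron exporter ferroportin, had 7.74, 7.77 and 7.75 in fluoxetine animals, against 8.16, 7.98 and 8.06 in stressed animals (-0.31 ± 0.074). In Slc40a1 the 3 fluoxetine animals were nearly alike and lay below every stressed and every control animal (7.99 ± 0.073). Kcng1, a modulatory potassium channel subunit, had 10.86, 10.82 and 11.06 in fluoxetine animals, against 11.16, 11.22 and 11.11 in stressed animals. The gap in Kcng1 was narrow, with fluoxetine animal 3 near the stress range, and the difference was -0.25 ± 0.066. The remaining lower genes were Aplf, a DNA end-joining factor (-0.35 ± 0.087), Tmod3, which caps actin filaments (-0.34 ± 0.089), Fam241a (-0.32 ± 0.085) and Ankrd6, a Wnt pathway adaptor (-0.19 ± 0.053).

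The 12 genes of smallest p on the higher side, also chosen among genes without overlap, began with Fancd2osl1. It had 9.63, 9.70 and 9.31 in fluoxetine animals, against 8.58, 8.94 and 9.13 in stressed animals. The groups did not overlap (0.66 ± 0.13, adjusted p = 0.450), the spread within both groups was wide, and the controls lay between the group means at 9.35 ± 0.095. Atp5mk, a small subunit of the mitochondrial ATP synthase, had 12.10, 11.97 and 12.10 in fluoxetine animals, against 11.81, 11.73 and 11.78 in stressed animals. Its difference was 0.28 ± 0.062 (adjusted p = 0.675), and the controls, at 11.96 ± 0.061, again lay between the means. Lrrn1, a leucine-rich repeat membrane protein of neurons, had 12.22, 12.16 and 12.39 in fluoxetine animals, against 12.09, 11.91 and 11.98 in stressed animals (0.26 ± 0.063). C1ql3, a secreted synaptic protein abundant in granule neurons, had 12.05, 12.07 and 12.10 in fluoxetine animals, against 11.92, 11.86 and 11.83 in stressed animals (0.20 ± 0.050). Btbd3, which steers dendrites toward active inputs in mouse cortex, had 12.83, 12.82 and 12.92 in fluoxetine animals, against 12.76, 12.59 and 12.54 in stressed animals (0.23 ± 0.063). In each of these 3 the fluoxetine animals lay above all stressed animals, as the choice required.

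The other 7 higher genes were measured toward the low end of the arrays, where the filter stood at a log2 level of 6.62. They were the insulin gene Ins2 (0.34 ± 0.092), the sulfotransferase Chst5 (0.34 ± 0.092), Prom2 (0.32 ± 0.089), the metallothionein Mt4 (0.32 ± 0.091), Garin4 (0.34 ± 0.095), the lipase Pnpla5 (0.24 ± 0.069) and the muscle acetylcholine receptor subunit Chrna1 (0.29 ± 0.083). Prom2, for example, had 7.12, 7.28 and 7.39 in fluoxetine animals, against 6.96, 7.02 and 6.84 in stressed animals. Genes that are known from pancreas (Ins2), epithelia (Mt4) and muscle (Chrna1) are among these low values.

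Immediate early transcription factors, the first genes that neurons switch on after firing, leaned to lower values in fluoxetine animals. Of 19 tested members of the list, 18 lay below 0 and 1 above, with a median difference of -0.11, beside 52.5% below 0 and a median of -0.0053 over all genes. None was called, and 3 were lower at an unadjusted p under 0.05 (Nr4a1, Npas4 and Klf10), which is 15.8% of the list beside 5.18% of all genes for that threshold in both directions. Klf2 and Klf4 were the 2 members without overlap, 10.5% of the list beside 11.3% of all genes. Nr4a1, an orphan nuclear receptor, had 8.12, 8.09 and 8.46 in fluoxetine animals, against 8.39, 8.50 and 8.96 in stressed animals. Stressed animal 3 was the highest and the groups overlapped; the difference was -0.40 ± 0.13, or -0.22 without that animal. Npas4, a neuron-specific factor induced by calcium entry, had 8.23, 7.98 and 8.42 in fluoxetine animals, against 8.71, 8.32 and 8.44 in stressed animals (-0.28 ± 0.12). The groups overlapped, and the difference was -0.17 without fluoxetine animal 2 or without stressed animal 1. The best known members differed less: Fos had -0.063 ± 0.089 and Egr1 had -0.091 ± 0.086, and in both the groups overlapped. Leaving out each animal in turn kept the list's median between -0.15 and -0.076, with 16 to 18 of the 19 members below 0, and with equal array medians it was -0.068. The mean deviation of the list was -0.078, -0.15 and 0.024 in fluoxetine animals, against 0.058, -0.022 and 0.14 in stressed animals. These overlapped, with fluoxetine animal 3 above stressed animal 2.

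The effector genes that follow them, which encode synaptic, signalling and secreted proteins, were less uniform. Of 26 tested, 17 lay below 0 with a median of -0.064 (-0.025 with equal array medians), and 4 were lower and 1 higher at an unadjusted p under 0.05, together 19.2% of the list beside 5.18% of all genes. Arc, a synaptic protein that takes part in receptor removal, had 9.11, 8.98 and 9.48 in fluoxetine animals, against 9.40, 9.52 and 9.78 in stressed animals. Fluoxetine animals 1 and 2 lay below all stressed animals and fluoxetine animal 3 within them (-0.38 ± 0.14). Dusp6, the phosphatase for ERK, had 8.98, 8.85 and 8.98 in fluoxetine animals, against 8.90, 9.33 and 9.50 in stressed animals (-0.31 ± 0.12), with stressed animal 1 among the fluoxetine values. The difference in Dusp6 was -0.48 without stressed animal 1 and -0.18 without stressed animal 3. Ptgs2, the inducible prostaglandin synthase COX-2, went the other way with 11.09, 10.90 and 10.87 in fluoxetine animals, against 10.84, 10.79 and 10.59 in stressed animals. The groups in Ptgs2 did not overlap (0.22 ± 0.086, and 0.14 without stressed animal 3), and the controls were lower still, at 10.61 ± 0.092. Dusp1 and Gadd45b, described above, also belong to this list.

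Genes that glucocorticoids induce were split. Of 21 tested, 15 lay below 0 and 6 above, with a median of -0.026. With equal array medians the median was 0.013 with 9 below 0, so the sign of the median depended on the scaling. The mean difference was -0.085, or -0.045 with equal array medians. The mean deviation of the list was -0.033, -0.069 and 0.0061 in fluoxetine animals, against 0.077, 0.040 and 0.040 in stressed animals. These did not overlap in the deposited scaling, and they include Dusp1, Nfkbia and Ddit4, described above. Dusp1, Nfkbia, Ddit4 and Pdk4 were lower without overlap and at an unadjusted p under 0.05, and Cebpd and Gadd45g were higher at that threshold. The 4 members without overlap are 19% of the list, beside 11.3% of all genes, and the 6 at that threshold are 28.6%, beside 5.18%. Pdk4, a kinase that restrains glucose oxidation, had 7.75, 7.52 and 7.70 in fluoxetine animals, against 8.17, 7.78 and 7.79 in stressed animals (-0.25 ± 0.095, and -0.12 without stressed animal 1). Fkbp5, the cochaperone that dampens the glucocorticoid receptor and is often used as a readout of stress hormones, had 10.03, 9.86 and 9.49 in fluoxetine animals, against 10.07, 10.21 and 9.79 in stressed animals. Fluoxetine animal 3 was well below the others, and without it the difference was -0.076 (-0.23 ± 0.12 with it). Leaving out the other animals in turn gave values as far apart as -0.35 without fluoxetine animal 1 and -0.13 without stressed animal 2. Tsc22d3, or GILZ, an anti-inflammatory target of the receptor, had 8.45, 8.49 and 8.35 in fluoxetine animals, against 8.40, 8.66 and 8.84 in stressed animals (-0.21 ± 0.10), with overlap. Its difference was -0.10 without stressed animal 3 and -0.32 without stressed animal 1. Sgk1, a kinase induced by corticosteroids, did not follow them, with 11.00, 11.00 and 10.93 in fluoxetine animals, against 10.93, 11.03 and 10.83 in stressed animals. Both groups lay above the controls (10.68 ± 0.027), and the difference of fluoxetine from stress, 0.046 ± 0.066, had a 95% interval of -0.091 to 0.18. Per1, a clock gene with a glucocorticoid response element, differed by -0.017 ± 0.086.

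The corticosteroid receptors themselves and the stress peptides leaned upward. Of 12 tested, 9 lay above 0, against 47.5% of all genes, with a median of 0.098. Avpr1b was the 1 member at an unadjusted p under 0.05 (8.33% of the list, beside 5.18% of all genes). In 3 members the groups did not overlap, all with fluoxetine higher (25% of the list, beside 11.3% of all genes in both directions). The mean deviation of the list was 0.047, 0.084 and 0.041 in fluoxetine animals, against -0.046, -0.029 and -0.018 in stressed animals. Avpr1b, a vasopressin receptor best known from the pituitary and hippocampal CA2, had 7.89, 7.93 and 7.79 in fluoxetine animals, against 7.48, 7.69 and 7.66 in stressed animals (0.26 ± 0.10). The groups did not overlap, at a low level. Nr3c2, the mineralocorticoid receptor, had 11.63, 11.57 and 11.81 in fluoxetine animals, against 11.54, 11.59 and 11.51 in stressed animals (0.13 ± 0.061, and 0.055 without fluoxetine animal 3). Both groups lay mostly below the controls (11.74 ± 0.084). Nr3c1, the glucocorticoid receptor, overlapped (0.057 ± 0.065, 95% interval -0.078 to 0.19). Oxt, which encodes oxytocin, and Hsd11b1, which regenerates active glucocorticoid, had 0.17 ± 0.088 and 0.13 ± 0.075.

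Genes of serotonin signalling, the system on which fluoxetine acts, lay on both sides of 0. Of 18 tested, 11 lay above and 7 below 0, with a median of 0.022, and the sign of the median turned without fluoxetine animal 3 (-0.0056) or stressed animal 2 (-0.03). Htr1a, the receptor 5-HT1A through which serotonin inhibits granule neurons, had 11.34, 11.33 and 11.44 in fluoxetine animals, against 11.44, 11.23 and 11.34 in stressed animals. The groups overlapped (0.027 ± 0.095, 95% interval -0.17 to 0.23). Htr4, a receptor coupled to cyclic AMP that granule neurons also carry, likewise overlapped (-0.044 ± 0.077, 95% interval -0.20 to 0.12). Slc6a4, the transporter that fluoxetine blocks and which is made in raphe neurons, was near the low end in both groups (0.036 ± 0.094). S100a10, or p11, which carries serotonin receptors to the cell surface, had 8.40, 8.20 and 8.39 in fluoxetine animals, against 8.66, 8.41 and 8.75 in stressed animals. It was the 1 member without overlap (5.56% of the list, beside 11.3% of all genes), and all fluoxetine animals lay below the stressed animals, with a difference of -0.28 ± 0.11 (unadjusted p = 0.0208, adjusted p = 0.934). Htr6 had a difference of -0.33 ± 0.14, or -0.20 without stressed animal 2. Htr2c had 7.10, 7.29 and 7.53 in fluoxetine animals, against 7.93, 7.14 and 9.90 in stressed animals. Stressed animal 3 was far above the other 5, and the mean difference of -1.02 ± 0.73 was -0.23 without it.

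Growth factors, several of which antidepressants are known to act on, also lay on both sides. Of 32 tested members of that list 14 lay above and 18 below 0, with a median of -0.017 (0.023 with equal array medians). Bdnf, the neurotrophin most often linked to antidepressants, had 9.06, 8.98 and 8.66 in fluoxetine animals, against 8.86, 8.72 and 8.72 in stressed animals. Fluoxetine animals 1 and 2 were the highest and fluoxetine animal 3 the lowest of the 6 (0.14 ± 0.12, 95% interval -0.11 to 0.38), and the difference was 0.25 without that animal but 0.056 without fluoxetine animal 1 and 0.096 without fluoxetine animal 2. Its receptor Ntrk2 had 0.039 ± 0.055, Vegfa, the endothelial growth factor, -0.091 ± 0.075 (-0.056 without fluoxetine animal 1 and -0.15 without fluoxetine animal 3), and Igf1 -0.017 ± 0.13, all with overlap. Gdnf, a neurotrophic factor for dopamine neurons, had 7.37, 7.52 and 7.43 in fluoxetine animals, against 7.12, 7.20 and 7.32 in stressed animals. It was the only member higher without overlap (0.22 ± 0.094), at a low level.

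Markers of young granule neurons were mixed and those of mature granule neurons mostly higher in value in fluoxetine animals. Of 23 immature neuron genes, 15 lay below 0 with a median of -0.034, and with equal array medians or without stressed animal 3 the median was 0.0053 or 0.034. Sox11, a transcription factor of newborn neurons, had 8.68, 8.69 and 8.62 in fluoxetine animals, against 8.98, 8.89 and 9.13 in stressed animals. The groups did not overlap (-0.34 ± 0.10, adjusted p = 0.934), and the controls varied widely between 8.75 and 9.15. Neurod1, needed for the survival of new granule neurons in mice, had 11.13, 11.20 and 11.44 in fluoxetine animals, against 11.03, 11.08 and 11.08 in stressed animals. It was higher without overlap (0.19 ± 0.082), and by 0.10 without fluoxetine animal 3. Dcx, the usual marker of young neurons, had 9.13, 9.16 and 9.59 in fluoxetine animals, against 9.33, 9.05 and 9.63 in stressed animals. Dcx overlapped fully (-0.040 ± 0.13), and so did Calb2, which young granule neurons and mossy cells express (-0.043 ± 0.14). Proliferation and progenitor genes (16 tested, 10 above 0, median 0.043) held no member at an unadjusted p under 0.05. Mki67 was not among the named probe sets used here.

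Of 14 tested mature granule neuron genes, 11 lay above 0, against 47.5% of all genes, with a median of 0.12. C1ql3, given above, Calb1 and Marcks were higher at an unadjusted p under 0.05 (21.4% of the list, beside 5.18% of all genes). Calb1, the calcium buffer calbindin of mature granule neurons, had 10.99, 10.99 and 10.71 in fluoxetine animals, against 10.81, 10.57 and 10.69 in stressed animals. Fluoxetine animals 1 and 2 lay above all stressed animals and fluoxetine animal 3 within their range (0.21 ± 0.081). Marcks, a membrane protein of actin remodelling, had 0.18 ± 0.077 (0.12 without fluoxetine animal 2), and Prox1, the transcription factor that defines granule neurons, 0.12 ± 0.089. Tdo2, which the mouse work cited above follows together with Calb1, had a mean of 5.31 in its highest probe set, under the filter, and was not tested. The median of this list was 0.040 without stressed animal 3, and among the fluoxetine and stressed animals genes of CA pyramidal neurons stood highest in stressed animal 3. The mean deviation of the 15 tested CA genes was -0.10 to -0.048 in fluoxetine animals, against -0.13, -0.040 and 0.24 in stressed animals 1, 2 and 3. Ccn3, a matricellular protein and the widest of them, had 8.31, 8.15 and 8.35 in fluoxetine animals, against 8.33, 8.41 and 10.72 in stressed animals, and its difference of -0.88 ± 0.39 was -0.099 without stressed animal 3. The part of tissue from outside the granule cell layer in that animal was not tested, and in tissue samples fewer cells of a type and less RNA per cell cannot be told apart.

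Genes of blood vessels had mostly lower values in fluoxetine animals. Of 29 tested endothelial and pericyte genes, 24 lay below 0, with a median of -0.11. Of these, 7 were lower at an unadjusted p under 0.05 and none higher (2.6% and 2.58% of all genes), and 5 were lower without overlap (5.57% of all genes). Slco1a4, an organic anion transporter of the blood-brain barrier, had 8.75, 8.93 and 8.74 in fluoxetine animals, against 9.26, 9.05 and 9.02 in stressed animals (-0.31 ± 0.10). Abcb1a, the drug efflux pump P-glycoprotein of the same barrier, had 8.946, 8.969 and 9.002 in fluoxetine animals, against 9.250, 9.300 and 9.180 in stressed animals (-0.27 ± 0.10). Both transporters were lower in every fluoxetine animal than in any stressed animal, and the controls lay near the stressed animals in Abcb1a (9.20 ± 0.056). Cldn5, the tight junction protein claudin 5, had 8.54, 8.78 and 8.38 in fluoxetine animals, against 8.76, 8.86 and 8.82 in stressed animals, with fluoxetine animal 2 inside the stress range (-0.25 ± 0.082, and -0.16 without fluoxetine animal 3). Rgs5, a marker of pericytes, had 10.59, 10.56 and 10.94 in fluoxetine animals, against 11.14, 10.76 and 11.04 in stressed animals (-0.28 ± 0.13). Itm2a (-0.31 ± 0.12), Egfl7 (-0.25 ± 0.11) and the angiopoietin receptor Tek (-0.30 ± 0.15, and -0.19 without fluoxetine animal 3) were the other members without overlap. The mean deviation of the list was -0.16, -0.091 and 0.018 in fluoxetine animals, against 0.13, -0.032 and 0.042 in stressed animals, and these overlapped. Without stressed animal 1 the list's median was -0.032, and without fluoxetine animal 3 it was -0.19.

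**Figure D3:**
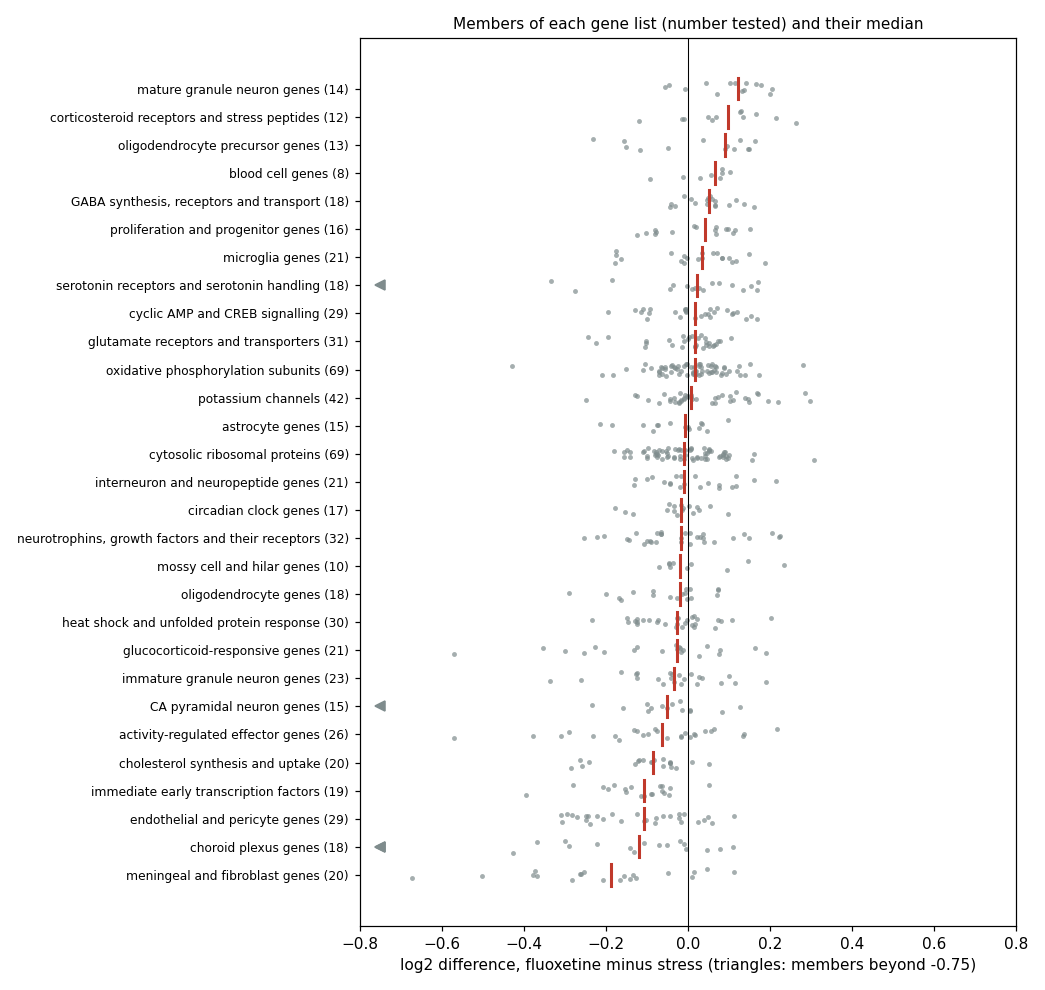
Difference in mean log2 expression, fluoxetine minus stress (horizontal axis), of each tested member of 29 gene lists (grey points) with the list's median (red line), ordered by that median. Medians run from -0.19 for meningeal genes to 0.12 for mature granule neuron genes, and the 3 lists of vessels, meninges and choroid plexus lie at the lower end together with the immediate early transcription factors.

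The lower average of choroid plexus and meningeal genes in fluoxetine animals rested mostly on stressed animal 1. Ttr, the thyroxine carrier that choroid plexus makes in large amounts, had 7.30, 7.15 and 7.52 in fluoxetine animals, against 11.77, 7.13 and 8.27 in stressed animals. Its mean difference of -1.74 ± 1.22 was -0.38 without stressed animal 1. Ptgds, the prostaglandin synthase of meninges, had 10.26, 11.20 and 10.34 in fluoxetine animals, against 12.10, 10.68 and 10.52 in stressed animals, and its difference of -0.50 ± 0.38 became -0.0018 without stressed animal 1. Of 18 choroid plexus genes 15 lay below 0 with a median of -0.12, or -0.03 without that animal, and of 20 meningeal genes 16 lay below 0 with a median of -0.19, or -0.029 without it. The mean deviation of the choroid plexus list was -0.20, -0.20 and -0.18 in fluoxetine animals, against 0.47, -0.20 and -0.11 in stressed animals, so that stressed animal 1 alone was high. That of the meningeal list was -0.22, 0.067 and -0.023 in fluoxetine animals, against 0.53, -0.085 and 0.0034 in stressed animals. The part of these tissues in the vascular values of that animal was not tested. Without it, 19 of the 29 vascular genes lay below 0.

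**Figure D4:**
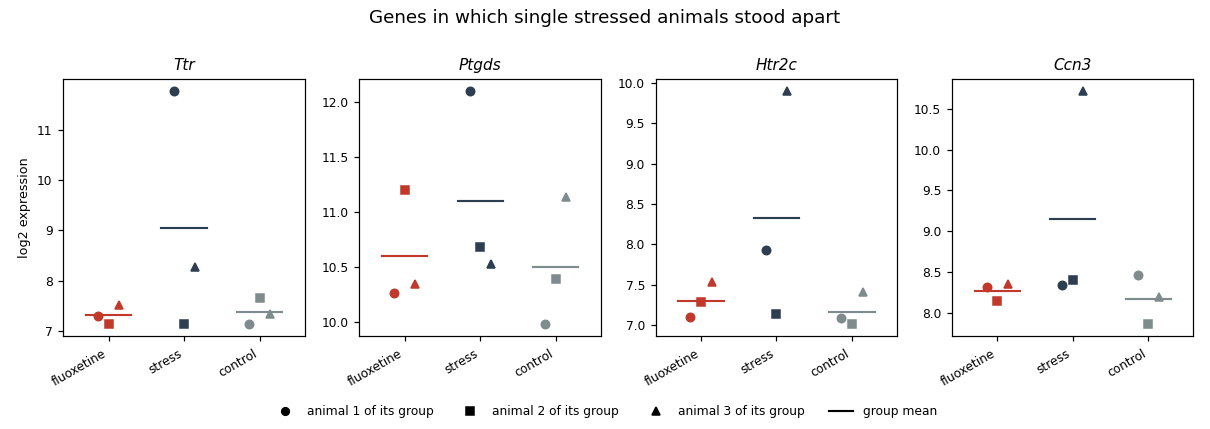
Log2 expression (vertical axes, separate scale for each gene) of Ttr, Ptgds, Htr2c and Ccn3 in each fluoxetine, stress and control animal, with lines at the group means. Stressed animal 1 reached 11.77 for Ttr and 12.10 for Ptgds, and stressed animal 3 reached 9.90 for Htr2c and 10.72 for Ccn3, above all other animals shown.

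Of 20 tested genes of cholesterol synthesis and uptake, 18 had values below 0, against 52.5% of all genes, and 0 were called. The median of -0.085 ran from -0.12 to -0.048 as each animal was left out and was -0.045 with equal array medians, and 14 of the 20 lay below 0 without fluoxetine animal 2 or without stressed animal 3. The mean deviation of the list was -0.0078, -0.13 and -0.072 in fluoxetine animals, against -0.038, 0.029 and 0.11 in stressed animals. These overlapped, with fluoxetine animal 1 above stressed animal 1. Acat2, which makes the acetoacetyl-CoA that feeds the pathway, had 9.70, 9.66 and 9.56 in fluoxetine animals, against 9.75, 10.01 and 9.93 in stressed animals. The groups did not overlap (-0.26 ± 0.079, adjusted p = 0.934). Fdft1, squalene synthase, had 11.38, 11.28 and 11.04 in fluoxetine animals, against 11.44, 11.43 and 11.55 in stressed animals (-0.24 ± 0.091, and -0.14 without fluoxetine animal 3). Pmvk, phosphomevalonate kinase, had 8.72, 8.58 and 8.20 in fluoxetine animals, against 8.72, 8.82 and 8.75 in stressed animals (-0.26 ± 0.10, and -0.11 without fluoxetine animal 3). These 3 were the members at an unadjusted p under 0.05 (15% of the list, beside 5.18% of all genes), and in Fdft1 and Pmvk fluoxetine animal 3 was the lowest. The subunits of oxidative phosphorylation, in which Atp5mk stood out, had a median of 0.016, with 40 of 69 above 0. That count depended on the scaling and on single animals, with 51 above 0 under equal array medians (median 0.056) and 54 without fluoxetine animal 3 (0.065). The median was -0.0255 without fluoxetine animal 1 and -0.0153 without stressed animal 1. Of 69 cytosolic ribosomal proteins 32 lay above 0 (median -0.0093), and 43 did with equal array medians (0.030) and 58 without fluoxetine animal 3 (0.080).

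Genes of inhibitory transmission lay mostly above 0. Of 18 genes of GABA synthesis, reception and transport 14 lay above 0 with a median of 0.051, none without overlap and none at an unadjusted p under 0.05. Gad1, which makes GABA, had 10.91, 10.98 and 10.86 in fluoxetine animals, against 10.77, 10.59 and 10.91 in stressed animals (0.16 ± 0.083, and 0.079 without stressed animal 2). Of 31 glutamate receptor and transporter genes 19 lay above 0 with a median of 0.016, or 0.056 with equal array medians and -0.0048 without stressed animal 1. Among 42 potassium channels, 22 lay above 0 with a median of 0.0072, and 3 were higher and 1 lower at an unadjusted p under 0.05, together 9.52% of the list beside 5.18% of all genes. With equal array medians 34 lay above 0 (median 0.047), and the median was -0.0053 without fluoxetine animal 3 and -0.0066 without stressed animal 1. Kcnj2, an inward rectifier that holds granule neurons at a negative resting potential, had 9.24, 9.12 and 9.12 in fluoxetine animals, against 9.03, 8.90 and 8.70 in stressed animals (0.29 ± 0.11). Every fluoxetine animal lay above every stressed and control animal in Kcnj2 (controls 8.80 ± 0.14). Kcna4, a fast inactivating channel, had 0.22 ± 0.091 (0.14 without fluoxetine animal 1), and Kcng1 lay on the lower side as described.

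A panel of 38 genes was chosen for their known part in antidepressant action or granule neuron state, with earlier results of these data known. Of these, 35 were tested and 0 were called. An unadjusted p under 0.05 was found in 7 of the 35, beside 619 of all 11940 genes (5.18%). The 3 that did not overlap, beside 11.3% of all genes, were S100a10, Sox11 and Neurod1.

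Set against the other antidepressants of the same dose, fluoxetine again had no called gene. Doses were equal in mg/kg, though the vehicle was water for fluoxetine and saline for imipramine and tianeptine. Imipramine, a tricyclic inhibitor of serotonin and noradrenaline reuptake, differed from fluoxetine in 0 genes after adjustment, with 1230 at an unadjusted p under 0.05 (10.3%), 711 higher (5.95%) and 519 lower (4.35%) in fluoxetine animals. The smallest adjusted p was 0.303, and 19.5% of genes did not overlap. Without fluoxetine animal 3, limma called 1 gene here, the thiamine transporter Slc19a3. Npy, a neuropeptide of hilar interneurons, had 10.94, 11.03 and 10.58 in fluoxetine animals, against 10.31, 10.35 and 10.28 in imipramine animals. All fluoxetine animals lay above all imipramine animals (0.54 ± 0.12, adjusted p = 0.354), and the mean of the stressed animals, 10.64 ± 0.21, lay between. Slc40a1 had 7.74, 7.77 and 7.75 in fluoxetine animals, against 8.12, 8.15 and 8.08 in imipramine animals (-0.36 ± 0.074), and Nfkbia had 8.49, 8.41 and 8.45 in fluoxetine animals, against 8.81, 8.71 and 8.88 in imipramine animals (-0.35 ± 0.073). In both genes the imipramine animals were at the level of the stressed animals, whose values are given above. Mphosph8, a reader of methylated histone H3, differed by -0.36 ± 0.069, and H1f4, a linker histone, and Ankmy2 by 0.27 ± 0.055 and 0.26 ± 0.053.

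Tianeptine, a tricyclic compound that does not block serotonin reuptake, also had no called gene against fluoxetine, with 529 at an unadjusted p under 0.05 (4.43%), 2.33% higher and 2.1% lower in fluoxetine animals, and a smallest adjusted p of 0.998. In 10.1% of genes the 2 groups did not overlap, with fluoxetine higher in 5.64% and lower in 4.42%. C3, the central complement component, had 8.48, 7.95 and 8.25 in fluoxetine animals, against 9.31, 8.81 and 9.14 in tianeptine animals. The groups did not overlap (-0.86 ± 0.19), and the tianeptine animals stood above every stressed animal. Nudt1, which clears oxidised nucleotides, had 6.80, 6.91 and 6.80 in fluoxetine animals, against 6.63, 6.43 and 6.42 in tianeptine animals (0.35 ± 0.076). The other genes of smallest p were LOC680428 (0.44 ± 0.11) and Gabrr3 (0.38 ± 0.098) on the higher side, and Slc11a1 (-0.47 ± 0.12) and Gzmc (-0.36 ± 0.094) on the lower. With these standard errors, a median of 0.085, a p above the threshold does not show that the drugs act alike.

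**Figure D5:**
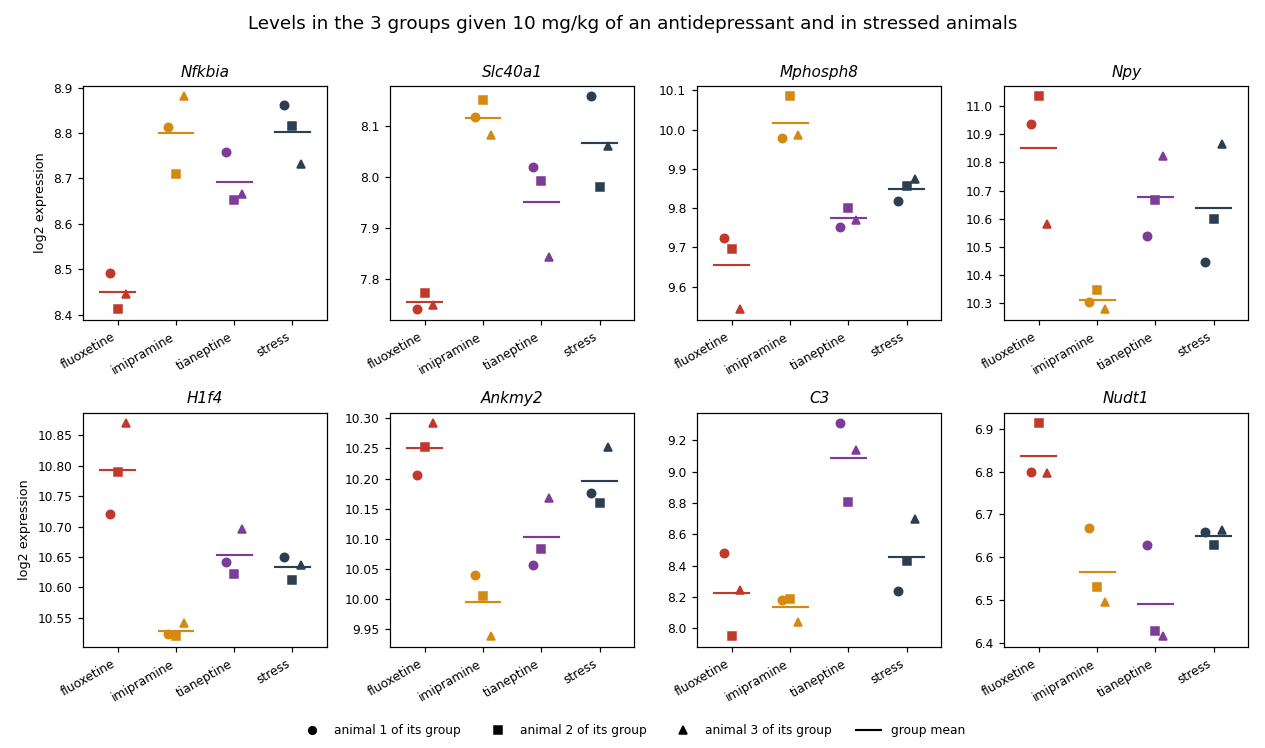
Log2 expression (vertical axes, separate scale for each gene) of 8 genes in each fluoxetine, imipramine, tianeptine and stress animal, with lines at the group means. Fluoxetine animals lay below all others in Nfkbia and Slc40a1, imipramine animals lay lowest in Npy, and tianeptine animals lay highest in C3.

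Between fluoxetine animals and unstressed controls limma called no gene. At an unadjusted p under 0.05 there were 556 genes (4.66%), 2.91% higher and 1.74% lower in fluoxetine animals, and the smallest adjusted p was 0.683. Groups did not overlap in 11.7% of genes, with fluoxetine higher in 6.65% and lower in 5.02%. Sgk1 had 11.00, 11.00 and 10.93 in fluoxetine animals, against 10.69, 10.65 and 10.70 in control animals (0.30 ± 0.066). Every fluoxetine animal was above every control animal, as the stressed animals were. Blvra, biliverdin reductase, had 8.25, 8.15 and 7.79 in fluoxetine animals, against 7.62, 7.55 and 7.68 in control animals (0.44 ± 0.11), and the nuclear envelope factor Banf1 differed by 0.29 ± 0.062. On the lower side were Ptma, prothymosin alpha (-0.22 ± 0.047), Klf10 (-0.38 ± 0.089) and Neurod2, a neuronal transcription factor (-0.26 ± 0.062). Klf10 had 9.02, 9.01 and 9.27 in fluoxetine animals, against 9.56, 9.39 and 9.49 in control animals, and stressed animals lay between and overlapped both (9.29 ± 0.17). When only the repeat arrays of the control animals were used, limma called 78 genes in this comparison, so these counts depend on which control arrays enter. The comparisons with stress and with control share the fluoxetine animals, and their values are given side by side only.

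Outside the named genes, 1 probe set passed. When all 21910 probe sets above the filter were tested, named or not, limma called 1 (0.00456%). That count moved with single animals, to 48 without stressed animal 3, 8 without fluoxetine animal 3 and 0 in each of the 4 fits that left out another of the 6. The 1 call stood beside 1311 at an unadjusted p under 0.05 (5.98%) and 6.97% with fluoxetine higher and no overlap. Probe set 10722425, which carries no gene name here, had 9.89, 9.91 and 10.20 in fluoxetine animals, against 9.24, 9.22 and 9.51 in stressed animals. It rose by 0.68 ± 0.10 (adjusted p = 0.0413), and control animals were between at 9.64, 9.55 and 9.63. The call was lost without fluoxetine animal 1 (adjusted p = 0.0783), fluoxetine animal 2 (0.102), stressed animal 1 (0.185) or stressed animal 2 (0.274), and was kept without fluoxetine animal 3 (0.0456) or stressed animal 3 (0.000855). It was kept with replicate number as a block (0.0106).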

How the data were processed

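Expression was measured in the dentate gyrus of 18 rats on 21 arrays. Per the submitters' processing notes, the authors ran RMA (Affymetrix Expression Console 1.2), and the deposited values are log2 levels per probe set. RMA shrinks small differences at low signal.

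The platform annotation gave 1 gene symbol to 15310 of 29214 probe sets, several to 323 and none to 13581. Symbols were updated through the RefSeq table of GRCr8 (15279 matched). Probe sets with 1 symbol were kept at a mean at or above the 25th percentile of all probe sets (log2 6.62), and the one with the highest mean stood for its gene, which left 11940 genes. Control animals entered as the mean of their 2 arrays. A linear model with a mean for each group was fitted to all 18 animals with limma 3.58.1 under R 4.3.3 (eBayes with trend, 12 residual degrees of freedom), so all 6 groups shared the estimate of the spread, and p-values were adjusted by Benjamini-Hochberg over all 11940 genes, called at 0.05. Differences are given ± SE, and group levels as mean ± SD. The fit was also run on simulated data with independent normal noise and added shifts. Those data held no animal that stood apart, so that run does not show how the fit behaves with such animals.

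The members, the 29 gene lists and the panel were chosen with earlier results of these data known. The text names, for fluoxetine minus stress, the 12 genes of smallest p without overlap in each direction, for other comparisons 3 in each direction, the panel, and up to 6 members of smallest p in each list. C1ql2, Slc19a3, Ldha and the unnamed probe sets are named outside this rule, chosen after seeing their values. Lists are described by counts and medians, with no set test. The deviations of same-numbered fluoxetine and stress animals had correlations of -0.14, 0.19 and 0.053. These 3 values cannot exclude a pairing by number. The labels state none, and the main fit used none. Alternatives covered scaling, filters, array weights, control arrays, a replicate block and leaving out each animal. Promoter sequences are from RefSeq. Figures were drawn with matplotlib 3.10.9.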

Additional observations from a re-analysis of the deposited data

How the results depend on the processing

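Over the repeats under other settings, 41 counts of called genes stayed at 0 and 4 did not. For fluoxetine minus stress limma called 0 named genes in all fits except with array weights (4), and 1 probe set when unnamed probe sets were included. That last count was 48 without stressed animal 3, 8 without fluoxetine animal 3 and 0 without each of the other 4 animals, repeats chosen after seeing the data. The smallest adjusted p-values for named genes ran elsewhere from 0.0596 (without fluoxetine animal 3) to 0.922 and 0.901 with only the 6 animals of this comparison in the fit. A repeat with the filter percentile taken over the named probe sets, chosen after seeing the data, called 0. The labels state no pairing by replicate number. With replicate number as a block limma called 0 genes, with a smallest adjusted p of 0.827, and the block changed no call in the other comparisons. Against imipramine the count ran from 0 to 1 as animals were left out, and against control it was 78 with the repeat control arrays only. The median changed sign under another scaling in 10 of the 29 lists. With equal array medians it was 0.0133 for glucocorticoid-responsive genes, 0.138 for corticosteroid receptors and stress peptides, 0.0567 for cyclic AMP and CREB genes, 0.0822 for proliferation genes, 0.032 for astrocyte genes, 0.106 for blood cell genes and 0.0557 for glutamate receptors. A further quantile normalisation gave 0.0132 for proliferation and 0.0383 for blood cell genes. With no filter on low signal they were 0.0755 for corticosteroid receptors, 0.015 for proliferation and 0.0167 for blood cell genes, and at the 50th percentile 0.127 for corticosteroid receptors and -0.039 for proliferation genes. As each animal was left out the medians ran from -0.0798 to -0.0285 for glucocorticoid-responsive genes, from 0.0734 to 0.116 for corticosteroid receptors, from 0.0178 to 0.0444 for proliferation, from 0.0403 to 0.166 for mature granule neuron, from -0.0435 to 0.0452 for mossy cell, from -0.027 to 0.137 for oligodendrocyte precursor and from 0.0342 to 0.0868 for blood cell genes. Sgk1 ran from -0.0022 to 0.0953 and Htr1a from -0.0263 to 0.0792, both turning sign. The cause of these changes was not tested. Of all list medians under other settings, 295 stayed within the spread between animals and 24 did not, and over the 85 genes checked 847 repeats kept the sign of the difference and 3 did not. The 3 animals a group and the low signal of many genes limit what could be called.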

Other observations

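Genes of mossy cells, the excitatory neurons of the hilus, and of glia lay on both sides of 0 for fluoxetine minus stress. Of 10 mossy cell and hilar genes 4 lay above 0 (6 with equal array medians and 8 without stressed animal 3), and Glp1r, the receptor for the gut peptide GLP-1, had 7.45, 7.37 and 7.41 in fluoxetine animals, against 7.14, 7.21 and 7.16 in stressed animals, with no overlap (0.24 ± 0.10). Of 15 astrocyte genes 9 lay below 0 with a median of -0.0077, or 0.032 with equal array medians. Among them Gfap, the intermediate filament of astrocytes, had 11.28, 11.39 and 11.41 in fluoxetine animals, against 11.46, 11.62 and 11.55 in stressed animals, again with no overlap (-0.18 ± 0.13). Of 21 microglia genes 12 lay above 0 with a median of 0.033, or -0.051 without fluoxetine animal 3. Of 18 oligodendrocyte genes 13 lay below 0 with a median of -0.021, but with equal array medians 10 lay above 0 and the median was 0.019. Among 13 oligodendrocyte precursor genes 8 lay above 0 with a median of 0.090, or -0.027 without fluoxetine animal 3, and Tnr, a matrix glycoprotein, had 11.00, 11.03 and 11.14 in fluoxetine animals, against 10.92, 10.89 and 10.88 in stressed animals (0.16 ± 0.052). Of 17 clock genes 11 lay below 0 with a median of -0.017, but 12 lay above 0 with equal array medians (0.023) and 9 without stressed animal 3 (0.0045). Bhlhe40, a repressor within the clock, had a difference of -0.18 ± 0.073 (-0.27 without fluoxetine animal 3). Of 30 heat shock and unfolded protein response genes 19 lay below 0 with a median of -0.026, but 18 lay above 0 both with equal array medians (0.014) and without fluoxetine animal 3 (0.021). Creld2, an endoplasmic reticulum stress gene, had -0.23 ± 0.088 (-0.14 without fluoxetine animal 3). Of 29 cyclic AMP and CREB genes 15 lay above 0 with a median of 0.017, of 21 interneuron and neuropeptide genes 10 with a median of -0.011 (0.029 with equal array medians and 0.095 without stressed animal 3), and of 8 blood cell genes 6 with a median of 0.066. None of these genes was called.

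The probe set that passed the test, 10722425, belongs to a run of neighbouring probe set numbers without a gene name here, which lie between those of Gabra5 and Peg12. The run was noticed after its values were seen. It held 58 probe sets above the filter with 39 different rows of values. Of these, 34 were higher and 5 lower in fluoxetine than in stressed animals, 16 were higher without overlap (6.97% of all probe sets), and their median difference was 0.33, against 0.0005 over all probe sets. Another of them, 10722429, had 11.30, 11.53 and 11.45 in fluoxetine animals, against 10.75, 10.70 and 11.09 in stressed animals (adjusted p = 0.0618). As a median over the run, each animal's deviation from the mean of all animals was 0.059, 0.073 and -0.22 in fluoxetine animals, against -0.24, -0.24 and -0.43 in stressed animals, and 0.11, 0.0026 and -0.088 in controls. The 3 stressed animals had the lowest values of all 18, with fluoxetine animal 3 (-0.215) close to stressed animals 1 (-0.235) and 2 (-0.238). The run was taken around the probe set of smallest p between fluoxetine and stress, so this order is not independent of the choice. What these probe sets measure was not analysed here.

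Ldha, lactate dehydrogenase A, had 2 probe sets that disagreed in single animals. One read 7.42 in fluoxetine animal 1 and 7.33 in control animal 2 but 11.92 or more in all others, and the other read 11.81 in fluoxetine animal 1 and 11.52 in control animal 2.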
